A study of Bos taurus with 15 samples.

Results

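Pregnancy-associated glycoproteins (PAGs) were examined in caruncular endometrium from cows of the Japanese Black breed, as 21 probes among the 15208 probes other than controls of a custom bovine array. A probe was taken when its gene name on the array was PAG with a number, or when its description or identifier named a pregnancy-associated glycoprotein, so that the measured values had no part in the choice. The probes stood for PAG1B, PAG2 to PAG12, PAG14 to PAG21, and LOC407093, which the array describes as similar to PAG15, with 1 probe each. Total RNA of the endometrium was labeled with Cy3 and hybridized to one-color Agilent arrays, with 1 array for each cow. The arrays came from cows on day 15 of the estrous cycle (NP15, n = 4), on day 15 of pregnancy (P15, n = 3), on day 18 of the cycle (NP18, n = 4), and on day 18 of pregnancy (P18, n = 4), counted from insemination as day 1. The labels name no treatment, the ages were not given in the sources used here, and the replicates were different animals. The uterine horn was opened on the side of the corpus luteum, and pregnancy was judged by eye from the conceptus tissue in it. No step that would take adhering conceptus cells off the caruncles was described.

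PAGs belong to the aspartic protease family of secreted glycoproteins, and most of them are thought to have lost protease activity. They are products of the ruminant trophoblast, and their appearance in maternal blood is the basis of pregnancy tests in cattle. By textbook grouping, the ancient PAGs (PAG2, PAG8, PAG10, PAG11, PAG12 and PAG13) are made across the trophectoderm, and the modern PAGs mainly in its binucleate cells, which fuse with the uterine epithelium after attachment begins.

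The family has many similar members, so the probe sequences decide which of them a signal can be given to. Each probe was 60 bases long, and no 2 of the 21 were the same. Among the 210 pairs of PAG probes the longest run of identical bases in common was 19, the median was 6, and 5 pairs had a run of 15 or more. The run of 19 was between PAG3 and PAG21. The probes of PAG6, PAG7, PAG8, PAG10 and PAG11 are shown first, because they lie in related sequence while their signals differed, and with them PAG18. Each is given from 5′ to 3′ as a stretch of 30 bases read from the scanner files. Capitals mark the longest run in common with a second probe, which was PAG8 for PAG10, PAG10 for PAG8, PAG7 and PAG11, PAG7 for PAG6, and PAG1B for PAG18.
PAG10: tggggcCAGGGATGCTGGTGAACTctgttt
PAG8: CAGGGATGCTGGTGAACTatgcctgatgct
PAG7: gctgccaGGATGCTGGTGAACTgtatttgt
PAG11: GGATGCTGGTaaactgtgtttggtgctctg
PAG6: TGAACTGTATTTGgtgctcgtacacccatt
PAG18: CCATTTGGTCTAAGtgtggtggaacttggg
The run of 18 bases in PAG8 and PAG10 and that of 15 bases in PAG7 and PAG10 are parts of the same sequence. PAG11 held 10 bases of it unbroken and matched further after a differing base. Runs do not give the likeness of whole probes. PAG8 and PAG11 had 35 identical bases when they were set side by side without gaps. By that count PAG16 and PAG20 had 48, PAG15 and PAG21 had 44, and PAG14 and PAG18 had 41. The run of PAG18 and PAG1B had 14 bases. Also shown are PAG2 (30 bases), PAG5 and PAG12 (all 60 bases), which had a signal in P18 arrays and whose capitals mark runs of 10 bases with PAG4, 9 bases with PAG18, and 7 bases with LOC407093, respectively.
PAG2: ggcagtgtaAATGCTTGGActatcagcaag
PAG5: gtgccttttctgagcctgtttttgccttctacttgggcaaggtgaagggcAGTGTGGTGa
PAG12: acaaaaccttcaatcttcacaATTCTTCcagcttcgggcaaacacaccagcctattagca
Only the probes were compared with each other. The full transcripts of the other members were not used here, so binding of one transcript to the probe of another was not tested.

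The values below are relative signals, which are the processed signal of a probe divided by the median of its array, so that 1 is the signal of the middle probe. The image analysis software of the authors flagged a spot as well above background, and a spot at or below background carried a small surrogate value in place of a signal. This detection limit differed between the groups. The lowest relative signal that was well above background was 0.0304 to 0.0475 in the NP15 arrays and 0.0196 to 0.0519 in the P15 arrays, but 0.0660 to 0.0950 in the NP18 arrays and 0.102 to 0.180 in the P18 arrays. The surrogate value likewise was 0.00398 to 0.0105 over the 7 arrays of day 15, 0.0134 to 0.0193 in NP18, and 0.0207 to 0.0367 in P18. A probe without any signal therefore had a higher relative signal in P18 than in NP18. A relative signal of different probes is not comparable, because probes differ in brightness, and ratios are given only between arrays within a probe.

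High PAG signals were found in 3 of the 4 P18 arrays. Outside P18 replicates 2, 3 and 4, no PAG probe had a relative signal above 0.136. Of the 21 probes, 7 exceeded background well in at least 1 P18 array (PAG2, PAG5, PAG7, PAG8, PAG11, PAG12 and PAG18), 2 in at least 1 NP18 array (PAG5 and PAG18), 8 in at least 1 P15 array (PAG4, PAG5, PAG7, PAG8, PAG9, PAG10, PAG21 and LOC407093), and 5 in at least 1 NP15 array (PAG4, PAG5, PAG7, PAG9 and PAG10). Among all probes of the array the corresponding shares were 77.5% in P18, 80.9% in NP18, 90.1% in P15 and 87.4% in NP15. By this flag, the PAG probes were mostly dark in a tissue where most probes gave a signal. The software's positive and significant flag marked 16 of them in NP15, 17 in P15, 16 in NP18 and 16 in P18, each in at least 1 array. The share of all probes was not counted for that flag. In 9 of the 21 (PAG1B, PAG3, PAG6, PAG14, PAG15, PAG16, PAG17, PAG19 and PAG20) no array of the 15 was well above background, against 7.02% of all probes, and PAG6 was at the surrogate value throughout. The relative signal of these 9 was at most 0.0234 in NP15, 0.0158 in P15, 0.0643 in NP18 and 0.0977 in P18.

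**Figure D1:**
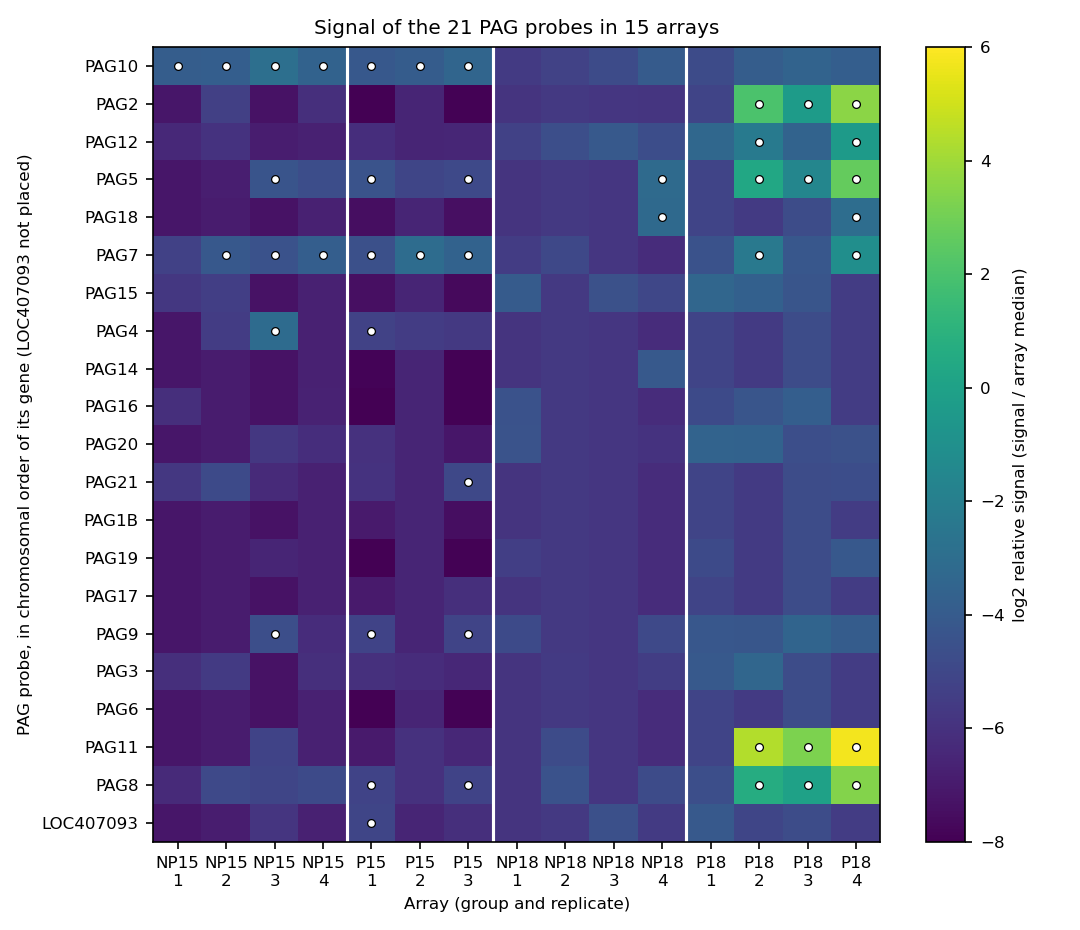
Heat map of the log2 relative signal of the 21 PAG probes (rows, in the chromosomal order of their genes, with LOC407093 last) in the 15 arrays (columns, by group and replicate). White dots mark spots well above background, and the bright cells of PAG2, PAG5, PAG8 and PAG11 lie in P18 replicates 2, 3 and 4, whereas P18 replicate 1 has no dot.

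By array, 6, 4 and 7 of the 21 PAG probes were well above background in P18 replicates 2, 3 and 4, and none in P18 replicate 1. The number was 0 in NP18 replicates 1, 2 and 3 and 2 in NP18 replicate 4. On day 15 it was 7, 2 and 6 in P15 replicates 1, 2 and 3, and 1, 2, 5 and 2 in NP15 replicates 1, 2, 3 and 4. Many of the spots of day 15 lay close to the limit of their array. When a signal of at least 2 times the lowest one well above background was asked for, 2 PAG probes remained in NP15, 3 in P15, 0 in NP18 and 6 in P18. The share of all probes was not counted at this limit.

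PAG11, PAG2 and PAG8, all of the ancient group, had the clearest difference. In replicates 1, 2, 3 and 4 of P18, the relative signal of PAG11 was 0.0281, 20.9, 9.55 and 53.1. In the NP18 arrays it was 0.0166, 0.0356, 0.0182 and 0.0134. P18 replicates 2, 3 and 4 stood far above every other array, and P18 replicate 1, at its surrogate value, was within the range of the NP18 values. The relative signal of PAG2 was 0.0281, 4.03, 0.804 and 12.0 in the P18 arrays, and 0.0166, 0.0193, 0.0182 and 0.0175 in the NP18 arrays. The value of PAG2 in P18 replicate 1 was that array's surrogate value, so its place above the NP18 arrays reflects the higher limit of that array. For PAG8 it was 0.0396, 1.62, 0.997 and 10.6 in P18, and 0.0166, 0.0454, 0.0182 and 0.0357 in NP18. Again only P18 replicate 1 overlapped with NP18.

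**Figure D2:**
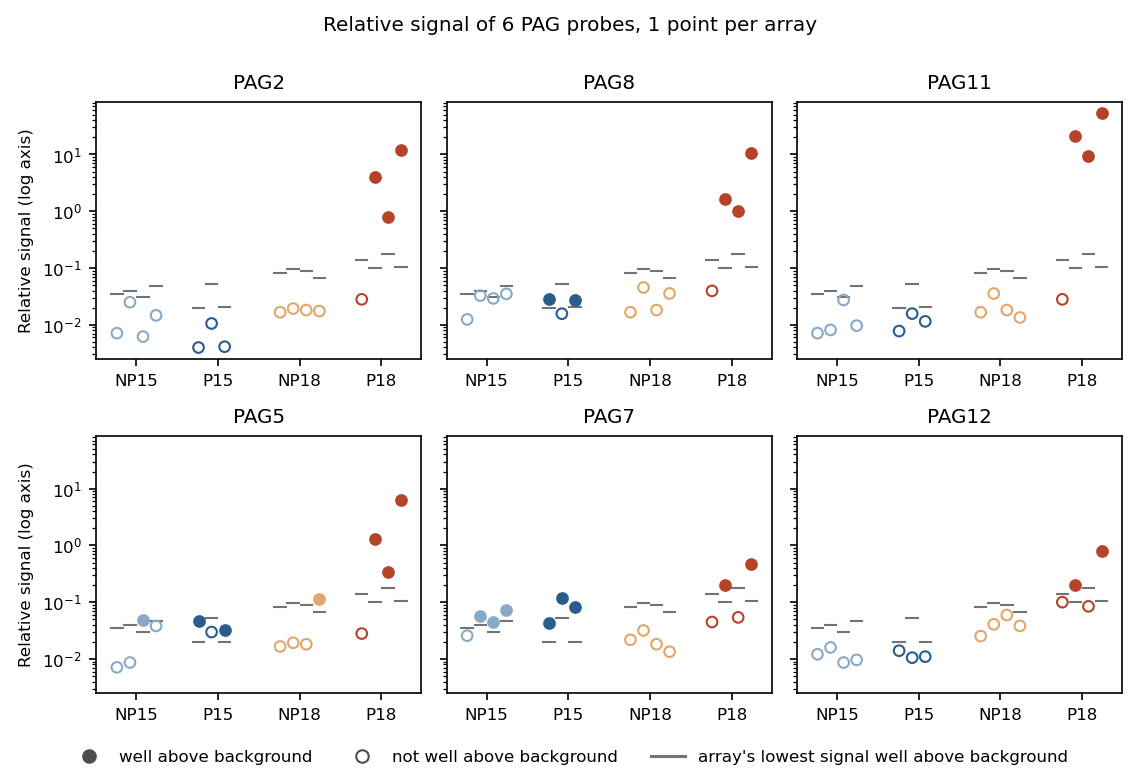
Relative signal (log axis) of 6 PAG probes in each group, with 1 point per array, in the order of the replicate numbers. Filled points are well above background, open points are not, and the gray bars give the lowest signal well above background of the same array. Each of the 6 probes has filled points in P18 replicate 2 and replicate 4, and none in P18 replicate 1.

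These 3 probes were well above background in 3 of the 4 P18 arrays and in 0 of the 4 NP18 arrays, a pattern of 36 probes (0.237% of all probes). Since NP18 was not well above background, its level is only a limit, and the difference is given as a minimum. The minimum sets the mean log2 value of the brighter group, all replicates included, against the mean over the dimmer arrays, in each of which the probe was put at the array's lowest signal well above background, or at its own signal where that was higher. Arrays of the brighter group that were not well above background entered at their own value, surrogates included. Their true level could be lower, so the minimum holds only with these values as given. By this measure, PAG11 was at least 50.5-fold higher in P18 than in NP18, PAG2 at least 12.4-fold, and PAG8 at least 11.0-fold. Without P18 replicate 1, the minimum was 267-fold, 41.1-fold and 31.3-fold, respectively. Without P18 replicate 4 it was 21.6-fold, 5.46-fold and 4.85-fold, and without P18 replicate 2 it was 29.4-fold, 7.85-fold and 9.08-fold.

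A linear model over all 15 arrays with limma was fitted to 13164 probes, those with 3 or more arrays well above background, which took in 7 of the 21 PAG probes (PAG2, PAG5, PAG7, PAG8, PAG9, PAG10 and PAG11). Calls required an adjusted p under 0.05 (Benjamini-Hochberg, over all of these probes) together with a change of more than 2-fold. Between P18 and NP18, 4 of the 7 were called, all higher in P18, against 5.75% of all probes tested. PAG2, PAG8 and PAG11 had fewer than 3 arrays well above background outside P18. They entered the test only through the P18 arrays in which they were high, so the share called describes these 7 and not the family. In the fit, NP18 values under the limit entered as they stood, and many of them were surrogate values in place of a signal. Its log2 differences therefore exceed the minimum folds above and are no measured folds. The fitted log2 difference was 7.73 for PAG11 (SE 1.63, limma adjusted p = 0.0117), 5.84 for PAG2 (SE 1.29, adjusted p = 0.0149), 5.10 for PAG8 (SE 1.14, adjusted p = 0.0159) and 2.60 for PAG7 (SE 0.63, adjusted p = 0.0240). PAG2 and PAG8 were not called without P18 replicate 2 (limma adjusted p = 0.0530 and 0.0518). Without P18 replicate 1, the fitted log2 difference was 10.14 for PAG11, 7.57 for PAG2 and 6.60 for PAG8, and all of them were called.

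PAG5 and PAG7, of the modern group, gave a weaker picture. The relative signal of PAG5 was 0.0281, 1.32, 0.335 and 6.38 in P18 replicates 1, 2, 3 and 4, and 0.0166, 0.0193, 0.0182 and 0.113 in NP18. The last NP18 array was well above background. P18 replicate 1 was at its surrogate value and had a limit of 0.138, above that NP18 value, so the order of these arrays was not measured. The log2 fold change of PAG5 was 4.22 and did not pass (SE 1.25, limma adjusted p = 0.0564). It passed without P18 replicate 1 (5.63, adjusted p = 0.00407). PAG7 had 0.0449, 0.201, 0.0540 and 0.465 in P18, where replicates 2 and 4 were well above background, and 0.0218, 0.0318, 0.0182 and 0.0134 in NP18, where none was. With P18 replicates 1 and 3 entered as they stood, PAG7 was at least 1.49-fold higher in P18, and at least 2.09-fold without P18 replicate 1. Without P18 replicate 4 the measure was 0.956, so P18 no longer exceeded the NP18 limit. The call of PAG7 was lost without P18 replicate 2 or 4 (limma adjusted p = 0.0761 and 0.0505) and without NP18 replicate 3 or 4 (adjusted p = 0.0628 and 0.0658).

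PAG12 and PAG18 were detected in too few arrays for the test. PAG12 was well above background in P18 replicates 2 and 4, with a relative signal of 0.204 and 0.788, and not in P18 replicates 1 and 3 (0.100 and 0.0845) or in any other array. With P18 replicates 1 and 3 entered as they stood, PAG12 was at least 2.33-fold higher in P18 than in NP18, or at least 1.46-fold without P18 replicate 4. PAG18 was well above background in P18 replicate 4 (0.127) and in NP18 replicate 4 (0.108), and at the surrogate value in the other arrays of day 18. All P18 arrays were above all NP18 arrays for 9 of the 21 PAG probes, against 16.7% of all probes. In 6 of these 9, no array of day 18 was well above background. In PAG1B, PAG4, PAG6 and PAG17, which are 4 of them, all 8 values were surrogates, so that the order was that of the surrogate values and not of a signal.

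PAG10, PAG9 and PAG4 were well above background in arrays of day 15 and in none of day 18. PAG10, another ancient member, was well above background in every array of day 15, with a relative signal of 0.0686, 0.0705, 0.136 and 0.0840 in NP15 and 0.0568, 0.0670 and 0.0921 in P15. On day 18 no array was well above background, with 0.0200, 0.0267, 0.0365 and 0.0636 in NP18 and 0.0358, 0.0694, 0.0872 and 0.0716 in P18. One NP18 array and P18 replicates 2, 3 and 4 lay within the range of day 15, where the same signals were above a lower limit.  PAG9 was well above background in NP15 replicate 3 (0.0409) and P15 replicates 1 and 3 (0.0277 and 0.0284), and PAG4 in NP15 replicate 3 (0.116) and P15 replicate 1 (0.0261). On day 18, PAG9 was 0.0515 to 0.0877 in P18 and 0.0182 to 0.0346 in NP18, under the limits of these arrays. The fitted log2 difference of PAG9 between P18 and NP18 was 1.33 and was not called (SE 0.49, limma adjusted p = 0.116). PAG6, whose probe has 13 bases in common with that of PAG7, was at the surrogate value in P18 replicate 4.

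On day 15, no PAG was called between pregnant and non-pregnant cows. With limma, 0 of the 7 tested were called in P15 against NP15 (adjusted p from 0.636 to 0.999), and none had an unadjusted p below 0.05, where 0.798% of all probes were called. The methods' t-test without adjustment called 0 as well, and limma with array weights called 1, PAG9. PAG11 and PAG2 were not well above background in any array of day 15. PAG8 was well above background in P15 replicates 1 and 3, at 0.0279 and 0.0272, and the NP15 arrays, at 0.0124, 0.0327, 0.0291 and 0.0350, overlapped with them. PAG7 was well above background in all 3 P15 arrays (0.0424, 0.120 and 0.0822) and in NP15 replicates 2, 3 and 4 (0.0567, 0.0445 and 0.0721), and the groups overlapped.

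Between the days of pregnancy, P18 against P15, 4 of the 7 were called (PAG2, PAG8, PAG9 and PAG11), all higher on day 18, against 11.9% of all probes tested. PAG2, PAG8 and PAG11 entered the test only through the P18 arrays in which they were high. The share called thus describes these 7 and not the family. PAG11 was at least 152-fold higher in P18 than in P15 (limma adjusted p = 0.00745) and PAG2 at least 37.3-fold (adjusted p = 0.00424). These minima were 802-fold and 124-fold without P18 replicate 1, 88.4-fold and 23.6-fold without P18 replicate 2, and 64.9-fold and 16.4-fold without P18 replicate 4. PAG8 had a log2 fold change of 5.31 (SE 1.23, adjusted p = 0.0123). PAG9 was called at a log2 fold change of 1.65 (SE 0.53, adjusted p = 0.0464) although it was not well above background in any P18 array, so its level there is a limit and no fold is given. This call of PAG9 was lost in 8 of 14 alternatives, the division by the 75th percentile (adjusted p = 0.0865) and the slide as a block (0.0659) among them, and in 10 of 15 fits that left out 1 array, including each of the P15 and P18 arrays in turn. In PAG7 the log2 fold change was 0.71 (SE 0.68, adjusted p = 0.494). The comparisons with NP18 and with P15 have the P18 arrays in common.

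Between the days of the cycle, NP18 against NP15, 1 of the 7 was called, against 7.16% of all probes tested. This was PAG10, which was lower in NP18 (log2 fold change of -1.37, SE 0.37, limma adjusted p = 0.0300). NP18 was not well above background, and PAG10 in NP15 was at least 1.05-fold higher than the limit. With single arrays left out, the measure fell as low as 0.900, where NP15 no longer exceeded the limit. The call of PAG10 was lost with quantile normalization (adjusted p = 0.0541) and without NP15 replicate 3 or NP18 replicate 1, 2 or 3 (limma adjusted p from 0.0521 to 0.0802). The difference between the effect of pregnancy on day 18 and that on day 15 (the interaction) was called in 0 of the 7 with limma, against 2.72% of all probes tested, while 4 of the 7 had an unadjusted p below 0.05. It was 7.73 on the log2 scale for PAG11 (SE 2.39, adjusted p = 0.0921), 6.86 for PAG2 (SE 1.89, adjusted p = 0.0643) and 5.25 for PAG8 (SE 1.68, adjusted p = 0.102). Without P18 replicate 1, these 3 were called.

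The P18 arrays differed widely among themselves in PAG signal. Replicate 4 was 2.53-fold higher than replicate 2 in PAG11, 2.97-fold in PAG2, 4.83-fold in PAG5 and 6.55-fold in PAG8. Replicate 2 in turn was 2.19-fold higher than replicate 3 in PAG11, 5.01-fold in PAG2, 3.94-fold in PAG5 and 1.62-fold in PAG8. All of these PAGs thus had the highest signal in replicate 4 and the lowest in replicate 1. Replicates 1 and 2 were on the same slide, as were replicates 3 and 4, and all 4 were scanned on the same day.

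Some other genes of the trophoblast were likewise high in P18 replicates 2, 3 and 4. On the array, 7 probes (0.0460%) were well above background in P18 replicates 2, 3 and 4 and in no other of the 15 arrays, a rule set after the values of PAG had been seen. They were PAG2, PAG11, TKDP1, a trophoblast Kunitz domain protein, LOC618696, described as similar to TKDP5, IFN-tau-c1, a gene of interferon tau, by which the conceptus signals pregnancy to the uterus, FETUB, which encodes the secreted protein fetuin B, and an expressed sequence tag without a gene name, BE237561. In all 7, replicate 4 was the highest of the P18 arrays, while the low signal of replicate 1 was part of the rule. IFN-tau-c1 was 0.0978, 19.5, 16.8 and 117 in P18 replicates 1, 2, 3 and 4. TKDP1 was 0.0674, 32.8, 16.0 and 125. Replicate 4 was 6.98-fold higher than replicate 3 for IFN-tau-c1 and 7.79-fold for TKDP1, against 5.56-fold for PAG11 and 14.9-fold for PAG2.

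In a list of trophoblast genes other than PAG, of which 29 were on the array with 30 probes, 5 were called higher in P18 than in NP18 and 1 lower among the 19 tested. Their median log2 fold change was 0.95 (0.07 over all probes tested). Of the 19, IFNT2, IFN-tau-c1, TKDP1 and TKDP4 had fewer than 3 arrays well above background outside P18, so that 4 of the rises entered through the arrays in which they were high. The median takes in these 4 as well, so it cannot be set against that of all probes. None of the 5 was well above background in NP18, and the rise was at least 46.7-fold in IFNT2, 95.03-fold in IFN-tau-c1, 99.0-fold in TKDP1, 32.7-fold in TKDP3 and 271-fold in TKDP4. It was at least 18.1-fold, 38.6-fold, 39.9-fold, 13.2-fold and 113-fold without P18 replicate 4, and at least 220-fold, 409-fold, 490-fold, 102-fold and 1181-fold without P18 replicate 1, with 62.2-fold in TKDP1 without P18 replicate 2. ELF5, an epithelial transcription factor, fell by 2.34 on the log2 scale. The other tested probes of the list were not called and differed in direction. Among them were TKDP5 (log2 fold change of 2.62, limma adjusted p = 0.285) and KRT7 (-2.26, adjusted p = 0.145). TKDP2, which was not tested, was not well above background in P18 replicate 2 (0.0966). TKDP4 was the one of the 5 genes called higher that was well above background in P18 replicate 1 (0.271). The summed relative signal of the list was 12.6 to 30.3 in NP15, 16.0 to 21.2 in P15 and 15.7 to 29.2 in NP18. A few bright probes carry this sum, so it does not describe the list as a whole. In P18 replicate 4, TKDP4 alone was 307, TKDP1 125 and IFN-tau-c1 117. In P18 replicates 1, 2, 3 and 4, the sum was 17.7, 152, 105 and 719. In P18 replicate 1 the sum was hence within the range of the non-pregnant arrays, and 8 of the 30 probes gave a signal well above background, against 15, 12 and 19 in replicates 2, 3 and 4. In NP18 replicates 1, 2, 3 and 4 the number was 8, 10, 11 and 9, and 7 of the 30 were well above background in all of these arrays, so a part of the list is also found in the endometrium. Placental lactogen (CSH2), a hormone of binucleate cells, was not well above background in any of the 15 arrays, nor was CDX2, a transcription factor of the trophectoderm, in any P18 array, where it was 0.0351 to 0.0991. CDX2 was well above background in all 3 P15 arrays, at 0.0327, 0.0839 and 0.0510 under a lower limit, and in no NP15 array. The part of trophoblast cells in the PAG signals was not tested. In bulk tissue, fewer cells of a type and less RNA per cell cannot be told apart.

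Interferon-responsive genes were high in every P18 array and had another order of arrays. All 11 interferon-responsive genes on the array were called higher in P18 than in NP18, P18 replicate 1 included. ISG15, the ubiquitin-like modifier, had a relative signal of 626, 689, 834 and 416 in P18 replicates 1, 2, 3 and 4, and 8.41 to 17.0 in NP18. MX1, an antiviral GTPase, had 417, 427, 478 and 315, against 23.9 to 43.0. In P18 replicate 1, where no PAG probe was well above background, both genes were thus far above NP18. Replicate 4, with the highest PAG signals, was the lowest P18 array in 10 of the 11 genes, and replicate 3 the highest in 8.

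**Figure D3:**
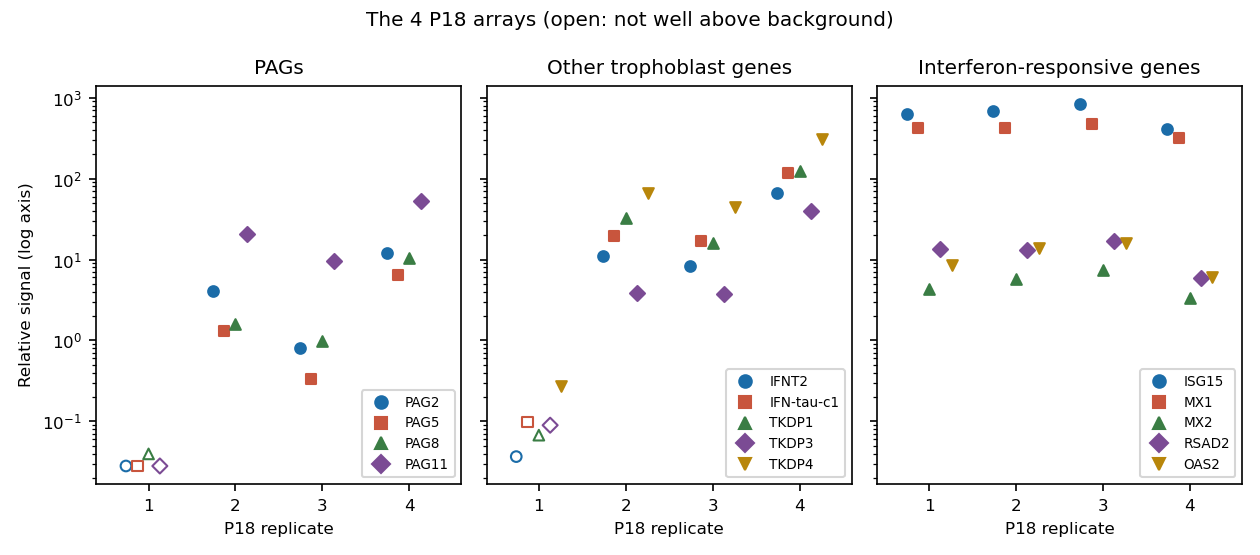
Relative signal (log axis) of 4 PAGs, 5 other trophoblast genes and 5 interferon-responsive genes in the 4 P18 arrays. Open symbols are not well above background. The PAGs and trophoblast genes shown are lowest in replicate 1 and highest in replicate 4, while the interferon-responsive genes are high in all 4 arrays. Heights of different genes are not comparable.

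Over the 15 arrays, the 5 named genes other than PAG with the highest Pearson correlation of log2 values were taken for each PAG tested, out of 7449 probes. For PAG11 they were LOC618696 (r = 0.985), IFN-tau-c1 (0.985), TKDP1 (0.983), IFNT2 (0.981) and TKDP4 (0.968), and for PAG2 the same 5 genes, led by TKDP1 (0.984). The same 5 came first for PAG8, led by IFNT2 (0.975). For PAG5 they were TKDP3 (0.919), TKDP1, IFNT2, LOC618696 and IFN-tau-c1. By contrast, the leading gene was IL17RE for PAG7 (0.843), CCKBR for PAG10 (0.879) and RGS17 for PAG9 (0.911), and none of the trophoblast genes was among their 5. These values are descriptions, and for the first 4 PAGs they rest on P18 replicates 2, 3 and 4.

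In the RefSeq annotation of ARS-UCD2.0, a bovine assembly, 20 of the 21 members were found, all on the same chromosome, and LOC407093 was not matched. In their order, PAG10 came first, followed by PAG2, PAG12, PAG5, PAG18 and PAG7 at positions 2 to 6, and PAG11 and PAG8 came last, at positions 19 and 20. The 7 probes with a signal in P18 were these at positions 2 to 6 and 19 and 20, and the 12 members between them gave none there. By the textbook grouping, which was set beside the values after they had been seen, 4 of the 5 ancient PAGs on the array and 3 of the 15 modern ones were well above background in at least 1 P18 array. All 9 members without a signal in any array were modern ones.

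The calls between P18 and NP18 held under the other scalings, but not under each way to estimate the spread. Between P18 and NP18, limma called PAG2, PAG7, PAG8 and PAG11 after division by the 75th percentile, after quantile normalization, in the log2 table of the authors, and with slides as a random block. When P18 and NP18 alone were fitted, only PAG9 was called, which was not well above background in any array of day 18. In that fit, PAG11, PAG2, PAG7 and PAG8 had a limma adjusted p of 0.0684, 0.0721, 0.0736 and 0.0756. With a random block for scan day, 0 of the 7 were called by limma (adjusted p = 0.539 for PAG11), against 49 of all probes. Each group of P15, NP18 and P18 was scanned on 1 day of its own, so that scan day and group cannot be told apart. The methods' t-test called PAG2, PAG7, PAG8, PAG9 and PAG11 without adjustment and 0 after Benjamini-Hochberg adjustment.

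**Figure D4:**
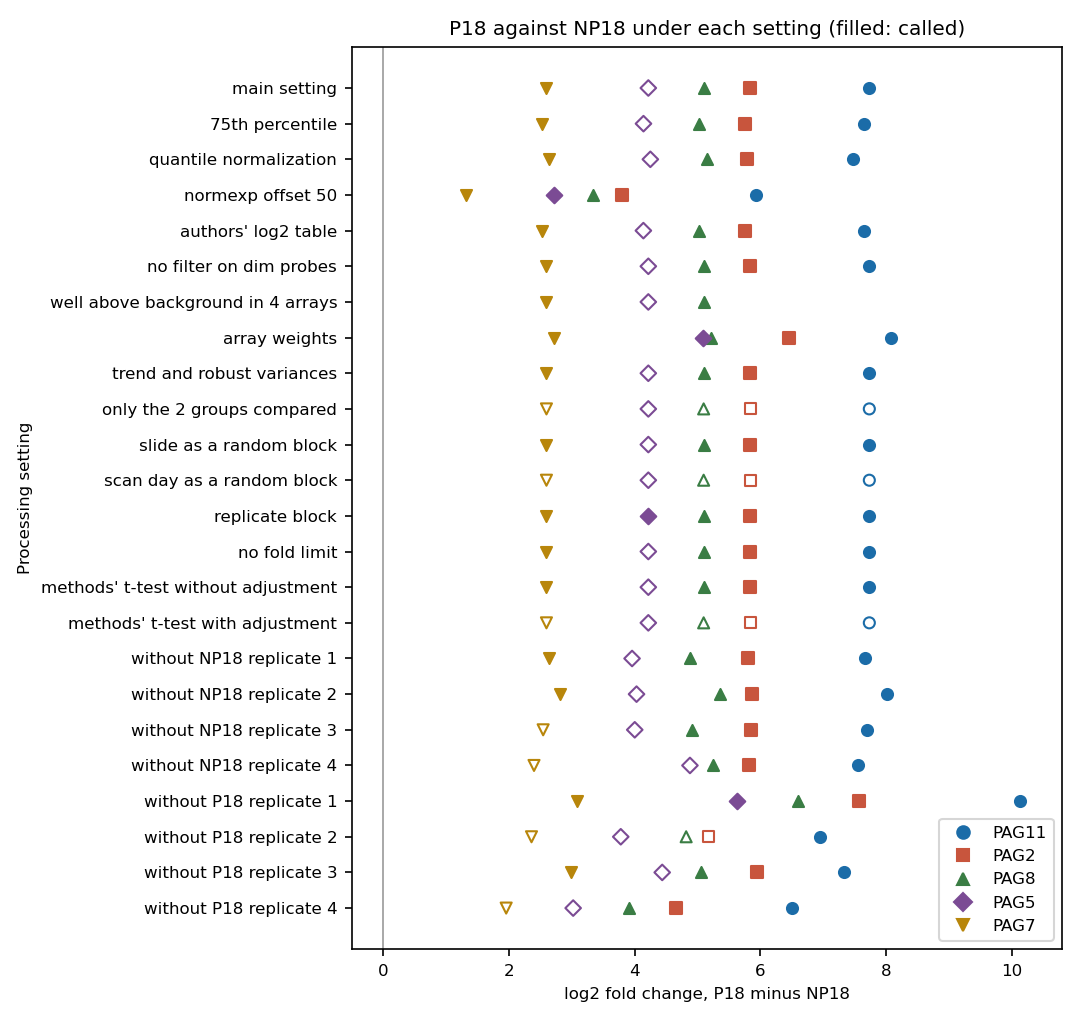
Log2 fold change of P18 over NP18 (horizontal axis) for 5 PAGs under each processing setting (rows), where a filled symbol was called at the adjusted p and fold limits of that setting. All values lie to the right of 0. PAG11 runs from 5.93 with normexp to 10.14 without P18 replicate 1.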

How the data were processed

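Caruncular endometrium of 15 cows was measured on one-color arrays. The authors' scanner files hold, per the file headers, a processed intensity per spot on a linear scale from Agilent Feature Extraction 9.5 (submitters' processing notes), corrected for background, with no scaling between arrays. A second deposited table, of log2 values by the authors, equalled the log2 intensity minus a constant for each array, and was used as an alternative. It has the same direction and scale as the intensities, and its column medians ran from -3.19 to -2.72. It left 0 columns without a sample.

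Here each intensity was divided by the array median over 15208 probes, as in the study's methods. Outlier spots were left out (0 in PAG probes), and 0 PAG spots were saturated. Probes well above background in at least 3 arrays entered the linear model of limma 3.58.1 under R 4.3.3, which had a mean for each of the groups. The procedure was tested on simulated data. Python 3.11.15 with pandas 2.3.3, numpy 2.4.6 and matplotlib 3.10.9 made the tables and plots. Every PAG was named, and, of the trophoblast and aspartic protease lists, every gene called in P18 against NP18. The members and lists were chosen with earlier results of these data known. An alias that matched a proline-rich protein to a prolactin-related one was dropped. The RefSeq table of ARS-UCD2.0 served for names and gene order only, and no coordinates were used.

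Lists of markers were set beside the PAGs. Of the aspartic proteases, 5 were on the array and 1 was called, CYM (log2 fold change of 1.36), which was not well above background in any array of day 18. The 6 markers of endometrial epithelium and 10 of stroma and caruncle were well above background in at least 1 array of every group, except 2 probes of the latter in P18. Of these, 0 epithelial probes were called between P18 and NP18, and 3 stromal ones fell (COL1A1 and both probes of ESR1). Of 7 leukocyte markers, 0 were called. The number of arrays limits the precision.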

Additional observations from a re-analysis of the deposited data

Results flagged for a closer look

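In 14 groups of 4 arrays in which a PAG probe was well above background at least once, 2 held a value far from the other 3 on the log2 scale. The limit used flags about 1 in 20 groups of 4 measured values by chance. That rate does not apply here, because the groups were picked for a detected spot and the other values were nearly constant surrogates. PAG5 in NP18 replicate 4 had a relative signal of 0.113, against 0.0166 to 0.0193 in the other NP18 arrays. PAG18 in the same array had 0.108, against 0.0166 to 0.0193. Both were well above background there, and the other values were surrogates. NP18 replicate 4 was from a non-pregnant cow by its label, and PAG2, PAG8 and PAG11 were not well above background in it. The cause was not tested.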

How the results depend on the processing

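No log2 fold change or interaction given for a PAG changed sign under any alternative in which it could be fitted. Of 4 members called in P18 against NP18, 2 remained testable and called with a filter of 4 arrays (PAG7 and PAG8), 7 were called with array weights, 1 with only these groups fitted, and 0 with a random block for scan day or the adjusted t-test. Leaving out 1 array gave 1 (without P18 replicate 2) to 5. In P15 against NP15, array weights called 1. In P18 against P15, 16 were called without a filter, where members at the surrogate value entered, 1 with the filter of 4 arrays, and 0 with the scan day block or the adjusted t-test, and leaving out 1 array gave 3 to 4. In NP18 against NP15, PAG10 was lost (0 called) with quantile normalization, normexp, only these groups fitted, the scan day block and the adjusted t-test, 7 were called without a filter and 2 by the unadjusted t-test, and leaving out 1 array gave 0 (without NP18 replicate 1, 2 or 3) to 1, where the 1 without NP15 replicate 3 was PAG9, higher in NP18, in place of PAG10. For the interaction, 6 were called with normexp and 3 with array weights, and leaving out 1 array gave 0 to 3. Of all 13164 probes tested, normexp called 1329 and array weights 1499 for the interaction, and array weights called 1004 in P15 against NP15. Without a filter, 3080 of all 15208 probes were called in P18 against P15 and 1744 in NP18 against NP15. With the software's positive and significant flag in place of well above background, 16 members in NP15, 17 in P15, 16 in NP18 and 16 in P18 were detected in at least 1 array. With at least 2 times the lowest signal well above background, 2, 3 and 0 were detected in NP15, P15 and NP18. Leaving out 1 P18 array gave 6 to 7.

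Over all probes, 757 calls in P18 against NP18 became 1421 with array weights, 477 with only these groups fitted, 49 with the scan day block, and 1157 and 188 with the t-test without and with adjustment, and leaving out 1 array gave 428 to 1043. The calls ran from 0 to 1004 in P15 against NP15 (105 as reported), 0 to 3080 in P18 against P15 (1566), 54 to 1744 in NP18 against NP15 (942), and 0 to 1499 for the interaction (358) over the same alternatives.

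The replicate numbers did not pair the cows. Deviations of arrays with the same number correlated at -0.13 to 0.04 between P18 and NP18, at -0.03, 0.11 and 0.30 between P15 and NP15, and at -0.26 to -0.03 between NP18 and NP15, so that not every pair was over 0.1. With the replicate block, 5 members were called in P18 against NP18, since PAG5 passed (adjusted p = 0.0258), and 0 in P15 against NP15, where the calls over all probes went from 105 to 8.

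Signal over background limits the PAG values on day 18, where the lowest signal well above background was highest.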
